A study of Mus musculus with 9 samples.

Results

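Rsad2, Cmpk2, Isg15, Usp18, Mx1, Mx2, Zbp1, Ifih1, Bst2 and Cxcl10 are genes that macrophages turn on when they sense interferon. They were taken by gene name from a table of 54532 genes, and all 10 were in it. RNA had been sequenced from wild type primary macrophages grown from mouse bone marrow, after 48 h on 1 of 3 materials. These were cp titanium (cpTi), the metallic glass Zr61Cu25Al14 without tantalum (Ta0) and the metallic glass Zr58Cu25Al14Ta3, which holds tantalum (Ta3). A metallic glass is an alloy with no crystal lattice. Each material had 3 libraries, and no agent other than the material is named for any of them. The age and sex of the mice are not given in the sources used here. The sources also do not say whether the 3 libraries of a material were 3 animals, 3 dishes or less than that, so each p-value here compares a difference with a spread between libraries that may be only technical. The labels also call the tissue a xenograft, and that word was not used here.

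Type I interferon binds a receptor made of Ifnar1 and Ifnar2, which works through the kinases Jak1 and Tyk2. A complex that holds Stat2 and Irf9 then binds a DNA element called the interferon-stimulated response element (ISRE) near the start of its target genes. The targets include enzymes that starve or block viruses, sensors of foreign nucleic acid, chemokines, and the transcription factor Irf7, which raises interferon output further. Macrophages keep a low level of this response without infection.

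The letters GAAANNGAAA, or TTTCNNTTTC on the other strand, are the core of an ISRE. They were looked for in the 250 bases before the RefSeq start site of each gene (build GRCm38.p6). A promoter was in the table for 6 of the 10 genes. The core was present in 4 of these 6, namely Rsad2, Isg15, Bst2 and Cxcl10, and in 2.98% of the 32851 promoters searched. The 4 promoters with a match are shown because their letters match that core, and the matches are in capitals. Each runs 5′ to 3′ on the strand of its gene and ends at the base before the start site.

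Rsad2: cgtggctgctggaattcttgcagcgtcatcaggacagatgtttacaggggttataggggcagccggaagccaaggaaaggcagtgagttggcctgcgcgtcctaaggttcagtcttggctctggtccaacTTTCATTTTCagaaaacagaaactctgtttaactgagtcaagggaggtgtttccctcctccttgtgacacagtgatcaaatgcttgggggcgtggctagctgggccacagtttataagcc
Isg15: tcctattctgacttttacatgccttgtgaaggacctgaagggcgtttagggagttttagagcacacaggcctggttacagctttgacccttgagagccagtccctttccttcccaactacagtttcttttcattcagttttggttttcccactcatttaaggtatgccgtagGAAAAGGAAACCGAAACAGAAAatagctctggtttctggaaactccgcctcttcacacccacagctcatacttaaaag
Bst2: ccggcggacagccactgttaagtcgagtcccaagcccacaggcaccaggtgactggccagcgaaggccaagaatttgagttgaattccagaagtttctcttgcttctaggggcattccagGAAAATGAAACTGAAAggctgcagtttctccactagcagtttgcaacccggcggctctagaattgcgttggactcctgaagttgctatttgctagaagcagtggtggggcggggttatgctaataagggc
Cxcl10: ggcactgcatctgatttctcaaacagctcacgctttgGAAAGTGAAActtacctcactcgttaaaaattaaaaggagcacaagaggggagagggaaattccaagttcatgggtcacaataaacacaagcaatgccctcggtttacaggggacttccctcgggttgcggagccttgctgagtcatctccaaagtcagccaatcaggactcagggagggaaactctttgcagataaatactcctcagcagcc

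The Rsad2 window (chr12:26456453-26456702, minus strand) had 1 match, from base -120 to base -111. The Isg15 window (chr4:156200819-156201068, minus strand) had 3 overlapping matches between bases -78 and -57. The Bst2 window (chr8:71537473-71537722, minus strand) had 2 overlapping matches between bases -130 and -115. The Cxcl10 window (chr5:92348890-92349139, minus strand) had 1 match from base -213 to base -204. The windows of Cmpk2 and Ifih1 did not hold these letters. The letters of a GAS element (TTCNNNGAA), known from the response to interferon gamma, occurred once, in Bst2, where the match from base -136 to base -128 overlaps the ISRE core, and in 7.02% of all promoters. The letters of an NF-kB site (GGGANNTTCC) occurred once, in Cxcl10 from base -159 to base -150, and in 1.21% of all promoters. A match of letters is a description of the sequence and not a binding site.

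Levels are given as FPKM as the authors deposited them, fragments scaled by gene length and by a size set for each library. That size was not the sum of the library's reads, as given below. FPKM are per length, and levels of different genes are set side by side on that scale. How short and long genes compare still differed between libraries, as given below. In the cpTi libraries the mean level was highest for Bst2 at 291 FPKM, followed by Isg15 at 73.3, Zbp1 at 19.7, Rsad2 at 13.6, Usp18 at 9.81, Cmpk2 at 5.64, Ifih1 at 3.86, Mx1 at 2.39, Cxcl10 at 1.90 and Mx2 at 1.01. A gene was tested when 3 or more of the 9 libraries held it at 1 FPKM or above, which kept 10858 genes and 8 of the 10 described here. Mx2 and Cxcl10 each reached 1 FPKM in 2 libraries and were left out. Mx1 reached it in 5 libraries, among them all 3 of cpTi, so that it passed through the group where it is high. Differences were fitted with limma on log2(FPKM + 1), and a gene was called when its Benjamini-Hochberg adjusted p over all tested genes was under 0.05.

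Rsad2, Cmpk2 and Usp18 were lower in macrophages on the glasses than on cpTi, with cpTi levels 2.46 to 2.69 times those of the 6 glass libraries. When both glasses were set against cpTi, these 3 of the 8 tested genes were called lower and none higher. Of all tested genes, 0.663% were called lower in that comparison. Rsad2 alone was called lower on Ta0, where 0.378% of all tested genes were, and Rsad2 and Cmpk2 on Ta3, where 0.451% were. None of the 8 differed between Ta3 and Ta0 by this test, and neither did any other gene, so the background there was 0%. At an unadjusted p under 0.05 that last comparison held 462 genes, and the voom weights of limma, applied to rebuilt reads, also called 0. The median log2 fold change of the 8 tested genes was -0.95 for both glasses, against 0.01 for all tested genes. It was -0.88 for Ta0 and -1.04 for Ta3. The comparisons with cpTi share the same 3 cpTi libraries. No library came from any other surface, so lower on the glasses cannot be told apart from higher on cpTi, and in bulk RNA fewer cells of a type cannot be told apart from less RNA per cell.

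**Figure D1:**
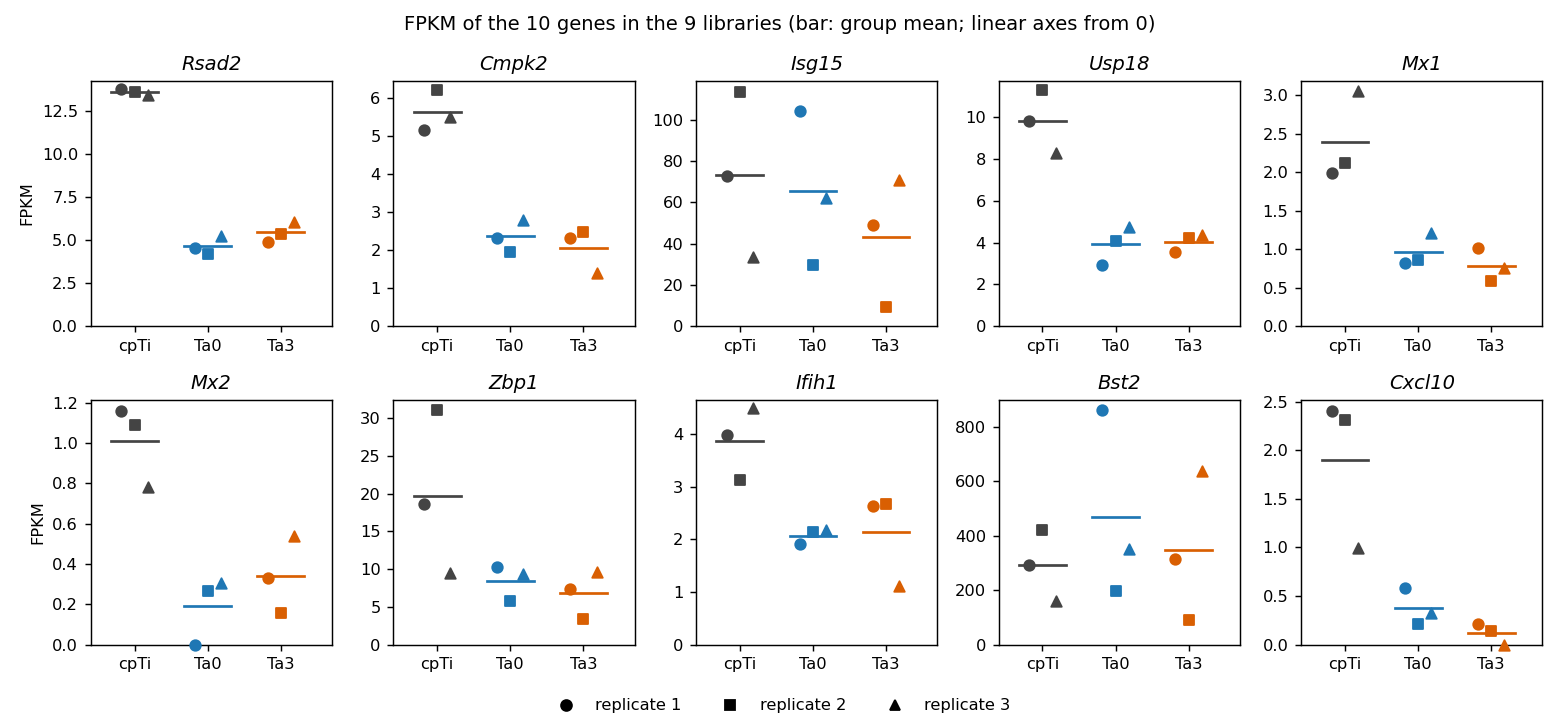
FPKM of the 10 genes in each of the 9 libraries, on linear axes that start at 0. Points are libraries, shapes are replicate numbers and bars are group means. In Rsad2, Cmpk2, Usp18, Mx1, Mx2, Ifih1 and Cxcl10 every glass library lay below every cpTi library, while Isg15, Zbp1 and Bst2 overlapped. Of all tested genes, 3.67% had that order, and Mx2 and Cxcl10 were below the filter for testing.

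The libraries differed from one another in a direction that ran through the groups. Reads rebuilt from FPKM and gene length summed to between 15517877 and 18689963 per library. The library size behind the FPKM differed from this sum. It was 9078170 against 15527155 reads in the Ta0 library 1, and 9775248 against 15517877 in the Ta3 library 3. In the cpTi library 3 it was 21911078 against 18203494. A smaller size raises every FPKM of a library, and scaling by the read sums was not tested. The percent of the rebuilt reads in 84 ribosomal protein genes, which are short and highly expressed, was 3.64 to 7.48% on cpTi, 7.18 to 18.3% on Ta0 and 2.22 to 16.9% on Ta3. The Ta0 library 1 (18.3%) and the Ta3 library 3 (16.9%) stood apart: they detected 15678 and 13466 genes above 0 FPKM, against 18156 to 20635 in the others. Calls for both glasses were also computed without these libraries, and the values are given with the genes. The slope of a library's log2 FPKM, relative to the mean of all libraries, on log2 gene length ran from -0.23 in the Ta0 library 1 to 0.27 in the Ta3 library 2. A slope below 0 means that short genes read high.

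Rsad2 encodes viperin, a radical S-adenosylmethionine enzyme that turns CTP into a chain-terminating nucleotide against viral polymerases. Its levels were 13.8, 13.6 and 13.4 FPKM in the cpTi libraries 1 to 3. They were 4.55, 4.21 and 5.22 FPKM on Ta0, and 4.89, 5.38 and 6.06 FPKM on Ta3. The groups of cpTi and glass did not overlap. On the deposited scale the cpTi libraries differed among themselves by a coefficient of variation of 1.31%, the smallest of the 10 genes. This depends on the scale, since they held 1070, 973 and 1274 Rsad2 reads of 16638140, 18231445 and 18203494 reads. Between 179 and 1274 reads stood behind each value. Mean Rsad2 on cpTi was 13.6 ± 0.179 FPKM (SD, n = 3), 2.92 times that on Ta0 and 2.50 times that on Ta3. The log2 fold change was -1.37 ± 0.14 (SE; adjusted p = 0.00622, limma) on Ta0, -1.18 ± 0.14 (adjusted p = 0.0154) on Ta3 and -1.28 ± 0.12 (adjusted p = 0.00320) for both glasses. Ta3 lay above Ta0 by 0.19 ± 0.14 on that scale, which did not pass the test (adjusted p = 0.846), and the libraries of the 2 glasses overlapped. The call for both glasses was lost without the cpTi library 1 (adjusted p = 0.0548) and when libraries were rescaled to a common FPKM total (0.327). The call on Ta0 was lost without the cpTi libraries 1 or 2 or the Ta0 libraries 1 or 2 (0.0588 to 0.0865), and the call on Ta3 without any cpTi library or the Ta3 library 1 (0.0535 to 0.152), while the fold changes stayed between -1.44 and -1.12.

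Cmpk2 encodes a mitochondrial kinase of UMP and CMP that supplies nucleotides and is a neighbour of Rsad2. Levels on cpTi were 5.17, 6.22 and 5.51 FPKM. On Ta0 they were 2.33, 1.94 and 2.81 FPKM, and on Ta3 they were 2.31, 2.47 and 1.40 FPKM. All 6 glass libraries lay below the lowest cpTi library, and the 2 glasses overlapped. Mean Cmpk2 on cpTi was 5.64 ± 0.534 FPKM (SD, n = 3), 2.55 times the mean of the glass libraries. For both glasses the log2 fold change was -1.06 ± 0.16 (adjusted p = 0.0249, limma). It was -1.13 ± 0.18 (adjusted p = 0.0461) on Ta3 and -0.99 ± 0.18 (adjusted p = 0.0942) on Ta0, where the gene was not called. The Ta3 call was lost in every alternative except the length slope covariate, at adjusted p from 0.0562 upward. The call for both glasses was lost when any cpTi library, any Ta0 library or the Ta3 library 1 was left out (adjusted p from 0.0566 to 0.196).

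The 2 genes sit head to head on chromosome 12. Rsad2 (ENSMUSG00000020641) lies at chr12:26442746-26456452 on the minus strand and Cmpk2 (ENSMUSG00000020638) at chr12:26469204-26479837 on the plus strand, in build GRCm38. Their starts are 12752 bases apart, and no other gene of the table lies wholly between them. The next protein coding gene beyond Rsad2, Rnf144a, was at 0 to 0.267 FPKM in the 9 libraries. After centring each gene on its own mean, the log2(FPKM + 1) profiles of the pair over the 9 libraries differed by a root mean square of 0.264. Over the other tested genes the median difference from Rsad2 was 0.688. The pair was not the closest: Usp18 lay nearer to Rsad2 (0.177), and Mx1 (0.234) and Usp18 (0.247) lay nearer to Cmpk2. Genes outside the 10 were nearer still to each, as given below.

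Isg15 and Usp18 act against each other on the same modification. Isg15 is a ubiquitin-like protein that is attached to other proteins, and Usp18 is the protease that takes it off again and that also restrains signalling at Ifnar2. Usp18 (ENSMUSG00000030107, chr6:121245906-121270917, plus strand) was at 9.82, 11.3 and 8.28 FPKM on cpTi. It was at 2.92, 4.06 and 4.76 FPKM on Ta0, and at 3.57, 4.20 and 4.36 FPKM on Ta3. No glass library reached the lowest cpTi library. Mean Usp18 on cpTi was 9.81 ± 1.52 FPKM (SD, n = 3), 2.46 times that of the glass libraries. Set against cpTi, both glasses gave a log2 fold change of -1.12 ± 0.16 (adjusted p = 0.0214, limma). Each glass alone missed the threshold, at -1.14 ± 0.19 on Ta0 (adjusted p = 0.0501) and -1.09 ± 0.19 on Ta3 (adjusted p = 0.0555). The call for both glasses was lost without any one of the cpTi libraries, the Ta0 library 2 or the Ta3 library 1 (adjusted p from 0.0524 to 0.187). The antisense gene Gm44148 overlaps Usp18, and without a stated strand setting their reads cannot be told apart. It was at 0.706 FPKM or less except in the Ta3 library 3, where it had 19 reads (6.15 FPKM).

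Isg15 (ENSMUSG00000035692, chr4:156199424-156200818, minus strand), with 3 ISRE cores in the window printed above, varied widely within each material. It was at 72.8, 114 and 33.5 FPKM on cpTi. On Ta0 the values were 104, 29.7 and 62.0 FPKM, and on Ta3 49.2, 9.32 and 70.6 FPKM. The groups overlapped throughout. The log2 fold change for both glasses was -0.58 ± 0.68 (adjusted p = 0.851, limma), with -0.17 ± 0.79 (0.940) on Ta0 and -0.99 ± 0.79 (0.921) on Ta3. Without the Ta3 library 2, where Isg15 was lowest, the values were -0.16 for both glasses and -0.15 on Ta3.

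Bst2 (ENSMUSG00000046718, chr8:71534255-71537456, minus strand) encodes tetherin, a membrane protein that holds budding virus on the cell. It was the most abundant of the 10 genes, at 293, 420 and 160 FPKM on cpTi. On Ta0 its levels were 860, 198 and 350 FPKM, and on Ta3 315, 88.6 and 638 FPKM. The highest and the lowest library were both on a glass, and the groups overlapped. The log2 fold change was 0.24 ± 0.69 (adjusted p = 0.938, limma) for both glasses, 0.53 ± 0.80 (0.812) on Ta0 and -0.05 ± 0.80 (0.996) on Ta3. Of the 8 tested genes it was the one whose estimate for both glasses lay above 0, and this estimate was below 0 with a common FPKM total (-0.15), with the length slope covariate (-0.42) and without the Ta0 library 1 and the Ta3 library 3 together (-0.36).

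Zbp1 (ENSMUSG00000027514, chr2:173206612-173218923, minus strand) binds Z-form nucleic acid and can start necroptosis. Its levels were 18.6, 31.1 and 9.51 FPKM on cpTi. They were 10.2, 5.71 and 9.31 FPKM on Ta0, and 7.41, 3.38 and 9.57 FPKM on Ta3. The lowest cpTi library lay among the glass libraries. Mean Zbp1 on cpTi was 19.7 ± 10.8 FPKM (SD, n = 3), 2.60 times that of the glass libraries, a ratio like those of Rsad2 and Cmpk2 but with a far wider spread. With this spread the log2 fold change for both glasses was -1.20 ± 0.40 (adjusted p = 0.477, limma).

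Isg15, Zbp1 and Bst2 followed the ribosomal protein share within every material: in each group of 3 the library with the larger share had the higher level. Of all tested genes, 2415 (22.2%) did so. Rsad2, Cmpk2, Mx1 and Ifih1 followed it in 0 of the 3 groups. Only the same order was counted, and the percent of all genes at 0 of 3 was not computed. Ifih1 ran in the reverse order of the share on cpTi and on Ta3, as did Cmpk2 on Ta3. Isg15 (756 bases) and Bst2 (903 bases) have the shortest gene lengths of the 10, while Zbp1 is longer (3529 bases).

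**Figure D2:**
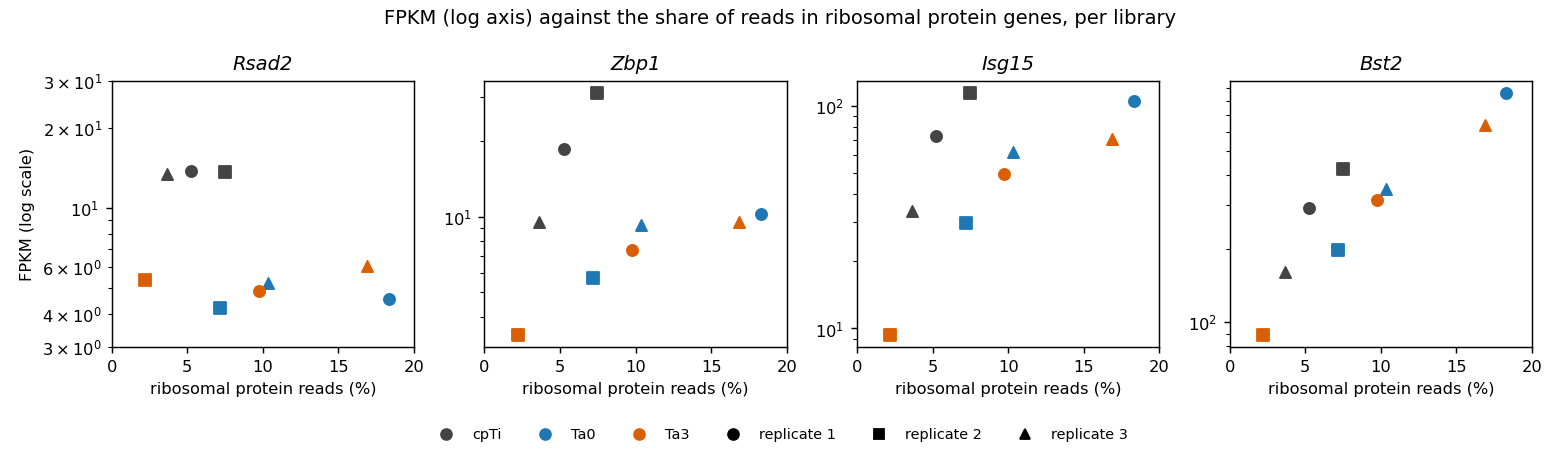
FPKM on a log axis against the ribosomal protein share of reads in percent, 1 point for each of the 9 libraries. Rsad2 was at 13.4 to 13.8 FPKM on cpTi whatever the share, while Zbp1, Isg15 and Bst2 were higher where the share was larger within each material. The cpTi and glass libraries closest in share were the cpTi library 2 (7.48%) and the Ta0 library 2 (7.18%). In that single pair Zbp1 (31.1 against 5.71 FPKM), Isg15 (114 against 29.7) and Bst2 (420 against 198) were all higher on cpTi. For each of these genes the pair sets the highest cpTi library against the lowest Ta0 library, and it was not tested. Over the whole groups the log2 fold changes on Ta0 were -1.03 ± 0.46 (SE) for Zbp1, -0.17 ± 0.79 for Isg15 and 0.53 ± 0.80 for Bst2, none called.

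With the length slope of each library as a covariate, the SE of Isg15, Zbp1 and Bst2 for both glasses shrank, while that of Mx1 stayed near 0.16. More of the 10 genes were called. For both glasses Isg15 then stood at -1.23 ± 0.20 (adjusted p = 0.00744, limma) and Zbp1 at -1.55 ± 0.19 (0.00149). Mx1 was also called there (-0.83 ± 0.16, 0.0176), beside Rsad2 (-1.30 ± 0.10, 0.000149), Cmpk2 (-1.01 ± 0.15, 0.00423) and Usp18 (-1.12 ± 0.15, 0.00291). Bst2 was not (-0.42 ± 0.15, 0.187), and neither was Ifih1 (-0.51 ± 0.14, 0.0744). The count of called genes among the 10 was 5 on Ta0, 6 on Ta3 and 6 for both glasses, all lower. With the covariate, 1.75% of all tested genes were called lower on Ta0, 3.55% on Ta3 and 3.06% for both glasses. For both glasses it raised the lower calls over all genes from 72 to 332 and the higher calls from 7 to 144. This covariate was computed from the same libraries, and what the slope stands for was not tested.

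**Figure D3:**
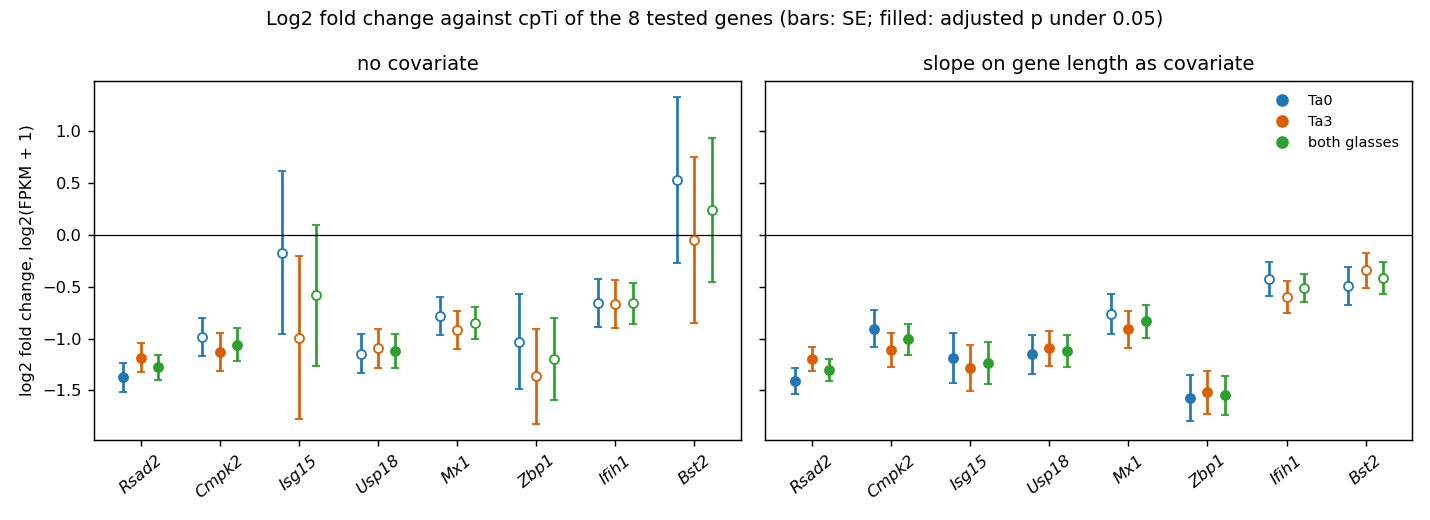
Log2 fold change against cpTi of the 8 tested genes, without a covariate (left) and with the length slope covariate (right). Points are estimates on log2(FPKM + 1), bars are SE, and filled points have an adjusted p under 0.05. Isg15 and Zbp1 were filled only in the right panel, at -1.23 and -1.55 for both glasses, while Rsad2 was filled in both panels.

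Ifih1 (ENSMUSG00000026896, chr2:62595798-62646255, minus strand) encodes MDA5, a sensor of long double-stranded RNA in the cytoplasm. It was at 3.98, 3.13 and 4.49 FPKM on cpTi. On Ta0 it was at 1.90, 2.13 and 2.17 FPKM, and on Ta3 at 2.63, 2.68 and 1.12 FPKM. Every glass library lay below every cpTi library. The cpTi mean was 3.86 ± 0.688 FPKM (SD, n = 3), 1.84 times that of the glass libraries, and the log2 fold change for both glasses was -0.66 ± 0.20 (adjusted p = 0.356, limma).

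Where intact, mouse Mx1 and Mx2 encode dynamin-like GTPases that block virus replication, Mx1 in the nucleus and Mx2 in the cytoplasm. Whether these mice carried intact copies was not tested. Both lie on chromosome 16 and are close in sequence, so reads shared between them may have been dropped or misassigned. Mx1 (ENSMUSG00000000386, chr16:97447035-97462907, minus strand) was at 1.99, 2.11 and 3.06 FPKM on cpTi. On Ta0 it was at 0.815, 0.856 and 1.21 FPKM, and on Ta3 at 1.01, 0.588 and 0.757 FPKM. The groups did not overlap, and the cpTi mean of 2.39 ± 0.587 FPKM (SD, n = 3) was 2.73 times that of the glass libraries. The log2 fold change for both glasses was -0.85 ± 0.16, just short of a call (adjusted p = 0.0567, limma).

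Mx2 (ENSMUSG00000023341, chr16:97535308-97560900, plus strand) is annotated as a polymorphic pseudogene in GENCODE M21. It was at 1.16, 1.09 and 0.783 FPKM on cpTi. In the Ta0 libraries it was at 0, 0.266 and 0.305 FPKM, and on Ta3 at 0.329, 0.154 and 0.538 FPKM. The highest of these values stood on 75 reads, and in the library at 0 a floor of 3 reads corresponds to 0.0914 FPKM. The cpTi mean was 3.81 times that of the glass libraries, and no glass library reached the lowest cpTi library. An exact two-sided permutation test of the mean FPKM gave p = 0.0238, the smallest that 6 libraries against 3 allow. Without overlap this p is fixed, so the test adds nothing to the order of the libraries, and it was not adjusted. In a limma fit with no filter the adjusted p was 0.185.

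Cxcl10 (ENSMUSG00000034855, chr5:92346638-92348889, minus strand) is a chemokine that draws T cells and NK cells through the receptor Cxcr3. It was at 2.40, 2.32 and 0.993 FPKM on cpTi. On Ta0 it was at 0.587, 0.213 and 0.326 FPKM, and on Ta3 at 0.216, 0.144 and 0 FPKM. The values rest on 97 reads or fewer, and in the library at 0 a floor of 3 reads corresponds to 0.136 FPKM. All glass libraries lay below the lowest cpTi library, and the cpTi mean was 7.68 times that of the glass libraries, the largest ratio of the 10 genes. The exact two-sided permutation test gave p = 0.0238, again the smallest possible and fixed by the lack of overlap. With no filter in limma the adjusted p was 0.0960. The gene Art3 overlaps Cxcl10 on the other strand and was at 0.0116 FPKM or less.

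Of the 8 tested genes, 5 had every glass library below every cpTi library: Rsad2, Cmpk2, Usp18, Mx1 and Ifih1. Of all tested genes, 3.67% showed that order against both glasses, 10.2% against Ta0 alone and 8.22% against Ta3 alone. Without the Ta0 library 1 and the Ta3 library 3 together, the same 3 genes were called for both glasses, where 0.537% of all tested genes were called lower, Rsad2 at -1.31 (adjusted p = 0.0159, limma), Cmpk2 at -0.97 (0.0395) and Usp18 at -1.06 (0.0381).

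The rest of the interferon pathway was described from lists of ligands, receptors, signalling proteins, sensors, conjugation enzymes, restraining factors, other effectors and chemokines, chosen with earlier results of these data known. In the comparison of both glasses with cpTi, 6 genes of these lists were called lower and none higher. Of all tested genes, 0.663% were called lower there, and the number tested is given with each list. Of these 6, Ifit3b was below 1 FPKM in all 6 glass libraries and passed the filter through the cpTi libraries, where it is high. Interferon genes themselves were hardly detected. Of 10 ligand genes none passed the filter, and Ifnb1, the interferon beta gene, was at 0.0800 FPKM or less in all 9 libraries.

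The receptor list had 5 of 6 genes tested, none called, and a median log2 fold change of -0.03. Ifnar1 was at 29.6 ± 2.33 FPKM on cpTi, 20.2 ± 2.95 on Ta0 and 21.9 ± 3.64 on Ta3 (SD, n = 3 each), with a log2 fold change of -0.48 ± 0.16 for both glasses (adjusted p = 0.504, limma). Ifnar2 was at 30.3 to 39.5 FPKM on cpTi, 28.6 to 43.3 on Ta0 and 26.2 to 36.3 on Ta3, with a log2 fold change of -0.05 ± 0.20 (0.959).

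Among signalling genes, Irf7 was the single one called of 11 tested. It was at 54.7, 71.2 and 41.1 FPKM on cpTi. It was at 19.0, 23.5 and 24.1 FPKM on Ta0, and at 20.5, 22.9 and 19.4 FPKM on Ta3, so that no glass library reached the lowest cpTi library. The log2 fold change for both glasses was -1.30 ± 0.20 (adjusted p = 0.0263, limma), a call kept in 8 of 18 alternatives. Left out singly, the cpTi libraries 1 and 2, each Ta0 library and the Ta3 library 1 took the call away (adjusted p from 0.0775 to 0.234), as did leaving out the Ta0 library 1 and the Ta3 library 3 together (0.0873). Of the factors that bind the ISRE, Stat2 stood at -0.88 ± 0.31 (adjusted p = 0.552) and Irf9 at -0.63 ± 0.13 (0.0921), and neither was called. The median of the list was -0.55.

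Of 36 other effectors, 34 were tested and 5 were called lower, namely Ifit2, Ifit3, Gbp3, Gbp2 and Ifit3b. The Ifit proteins bind foreign RNA ends and the Gbp proteins are GTPases that attack vacuoles of microbes. Their median log2 fold change was -0.67, and 32 of the 34 lay below 0, while 48.0% of all tested genes did. Ifit2 was at 12.6, 11.3 and 11.7 FPKM on cpTi. On Ta0 it was at 2.72, 3.04 and 5.10 FPKM, and on Ta3 at 3.29, 3.73 and 2.81 FPKM, for a log2 fold change of -1.56 ± 0.17 (adjusted p = 0.00834, limma). Ifit3 stood at -1.76 ± 0.22 (0.0108), and Gbp3 at -1.51 ± 0.21 (0.0207). Leaving out the cpTi library 1 or the cpTi library 2 ended the calls of Ifit2 (adjusted p = 0.0924 and 0.0688) and Ifit3 (0.104 and 0.0704). Gbp3 was lost without any cpTi library, the Ta0 library 2 or the Ta3 library 1 (0.0517 to 0.153). On Ta0 alone 1 effector was called, Ifit2, and on Ta3 alone 3 were, Ifit2, Ifit3 and Gbp3. Gbp2 and Ifit3b stayed called in 9 of 18 and 3 of 14 alternatives. Without the Ta0 library 1 and the Ta3 library 3 together, Gbp2 (adjusted p = 0.0734) and Ifit3b (0.0912) were not called, while Ifit2 (0.0217), Ifit3 (0.0314) and Gbp3 (0.0381) were. Ifit3 and Ifit3b are close copies, and reads may be shared between them.

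No gene was called among the sensors (11 of 12 tested, median -0.52), the restraining factors (5 of 6, median -0.21) or the chemokines (4 of 7, median -0.34). Uba7, Ube2l6 and Herc6 activate, carry and attach Isg15, and none of the 4 conjugation genes tested was called (median -0.28). Uba7 was at 2.77 ± 0.615 FPKM on cpTi, 1.66 ± 0.238 on Ta0 and 2.46 ± 0.334 on Ta3 (SD, n = 3 each). Ube2l6 was at 37.6 ± 12.5, 34.4 ± 6.74 and 30.3 ± 18.3 FPKM, and Herc6 at 1.45 ± 0.0933, 0.897 ± 0.259 and 0.958 ± 0.169 FPKM. Cxcl9 and Cxcl11, which share the receptor of Cxcl10, were at most at 0.744 and 0.0161 FPKM and were not tested.

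**Figure D4:**
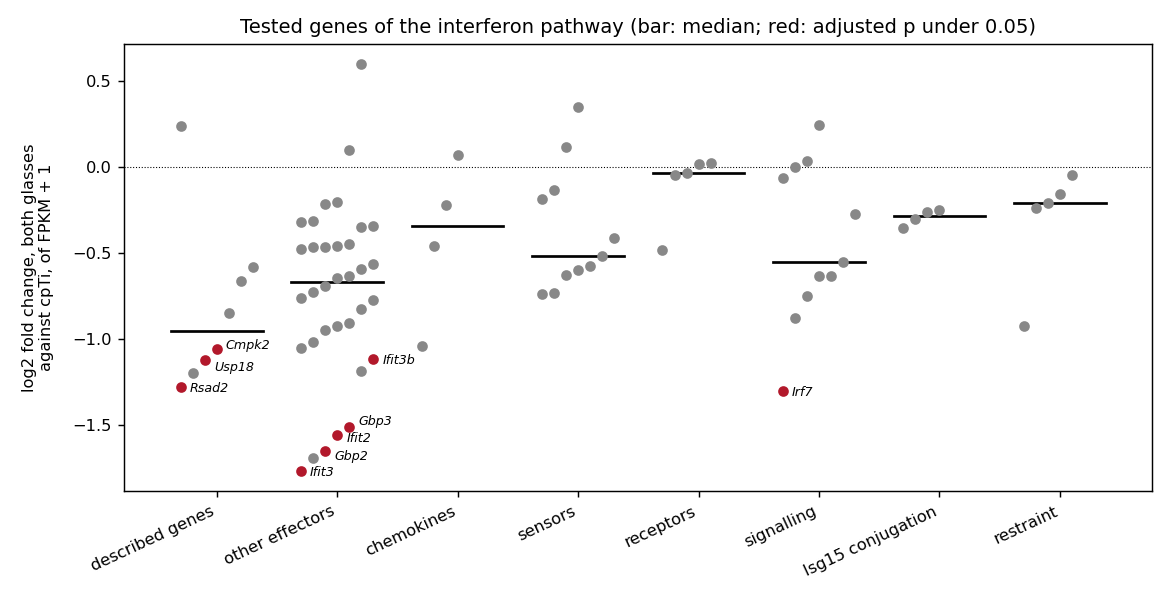
Log2 fold change of both glasses against cpTi for the tested genes of the pathway, by list. Points are genes, horizontal bars are list medians and red points have an adjusted p under 0.05. Rsad2, Usp18 and Cmpk2 were red among the 8 described genes, beside 5 other effectors and Irf7, and the medians ran from -0.03 for receptors to -0.95 for the described genes.

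The 5 tested genes outside the 10 whose profile over the 9 libraries was nearest to that of Rsad2, by the root mean square difference of centred log2(FPKM + 1), were Marcksl1 (0.145), Slc39a4 (0.189), Acpp (0.199), Csf3 (0.200) and Slc25a37 (0.202). Marcksl1 was at 42.3, 46.8 and 43.9 FPKM on cpTi and at 18.4 to 21.8 FPKM in the 6 glass libraries. Among the 10 themselves, Usp18 was nearest to Rsad2 (0.177). The 5 nearest to Cmpk2 were Ifi206 (0.0947), Gm5424 (0.119), Ms4a14 (0.149), Prkar2b (0.151) and Adgre4 (0.157), against a median of 0.605. Slc39a4, Csf3, Ifi206, Ms4a14 and Adgre4 were below 1 FPKM in all 6 glass libraries and passed the filter through the cpTi libraries, where they are high. At such levels the added 1 FPKM shrinks differences between libraries.

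All 10 macrophage markers were tested and none was called. Their summed level was 17182 to 29909 FPKM on cpTi, 23729 to 40923 on Ta0 and 11267 to 40701 on Ta3, of which Lyz2 made up the most. Single markers differed in direction. Adgre1, the gene of the F4/80 antigen, was at 149 to 163 FPKM on cpTi and 78.1 to 97.6 in the glass libraries, without overlap. Cd68 was at 781 to 1078 FPKM on cpTi and 1020 to 1672 on the glasses, and C1qa at 197 to 259 and 188 to 479, both with overlap. These 3 were chosen after their values were seen, and their part in the levels of the 10 genes was not tested. Plasmacytoid dendritic cells are strong interferon producers and also carry Bst2. Of their 6 markers 2 were tested, and the sum was 9.34 to 22.5 FPKM on cpTi, 23.9 to 91.9 on Ta0 and 11.4 to 43.7 on Ta3. This sum came almost wholly from Cox6a2 and Ly6d, while the defining marker Siglech was at 0.0538 FPKM or less. The 8 markers of T and NK cells, which make interferon gamma, summed to 2.06 to 3.18 FPKM on cpTi, 1.32 to 2.84 on Ta0 and 1.66 to 2.40 on Ta3, and none of them was tested. Neutrophil markers summed to 61.4 to 268 FPKM on cpTi, 91.9 to 388 on Ta0 and 10.2 to 381 on Ta3. Most of this was S100a8, while Ly6g was at 0 in all libraries. Fibroblast markers summed to 27.6 to 49.8 FPKM on cpTi, 29.5 to 30.4 on Ta0 and 35.9 to 43.4 on Ta3. No marker of either list was called. The part of other cells in the levels of the 10 genes was not tested.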

How the data were processed

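The authors deposited 1 table of FPKM for 54532 genes in 9 libraries. Per the labels' protocols, polyA RNA was isolated with TRIzol and libraries were made with a NEBNext Ultra kit. Per the submitters' processing notes, the tools were HISAT2 2.0.5 and featureCounts 1.5.0-p3, with CASAVA 1.8, fastp and DESeq2 1.20.0, and the build was GRCm38 (mm10); no role or strand setting is given. The columns are named by metal: that for titanium was read as cpTi, that for tantalum as Ta3 and that for zirconium as Ta0. Should that reading be wrong, Ta0 and Ta3 would change places. FPKM multiplied by gene length came out as whole reads in every library (100% within 0.05 reads of a whole number).

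From these values log2(FPKM + 1) was computed and fitted with limma 3.58.1 (R 4.3.3), in 1 model of 3 group means with two-sided moderated tests and a trend of the variance on the mean, after a filter of at least 1 FPKM in at least 3 libraries. Benjamini-Hochberg adjustment ran over all tested genes in each of 4 comparisons, with a threshold of 0.05. A fold change on log2(FPKM + 1) understates that of genes at low levels, so ratios of mean FPKM stand beside it. For Mx2 and Cxcl10 the mean FPKM of the glass and cpTi libraries were compared by exact permutation tests. The counting error of low genes is not covered by the SD between libraries.

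The 10 genes and the pathway lists were chosen with earlier results of these data known. Other pathway genes were named from the lists: up to 3 called genes with the smallest adjusted p per list, comparison and direction, and a set given whatever its p (Ifnb1, Ifnar1, Ifnar2, Stat2, Irf9, Irf7, Uba7, Ube2l6, Herc6, Cxcl9, Cxcl11; 1 more is not reported here). Gbp2 and Ifit3b were named beyond that rule, after their values were seen. Alternatives were a pseudocount of 0.1, no filter, a filter of 5 FPKM, a common FPKM total, only the groups compared, no trend, voom weights on rebuilt reads, the replicate number as a block, the length slope as a covariate, and leaving out libraries. All 10 gene positions matched GENCODE M21, and promoter sequences are from RefSeq, GRCm38.p6.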

Additional observations from a re-analysis of the deposited data

How the results depend on the processing

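Counts of called genes among the 10, by limma, moved with the processing. For Ta0 (1 called) the count was 0 with a common FPKM total, 5 with the length slope covariate, and 0 to 3 when 1 library was left out. Over all genes, lower calls there were 11, 190 and 7 to 71, against 41. For Ta3 (2 called) it was 1 with a pseudocount of 0.1, with no filter, with a filter of 5 FPKM, without the mean-variance trend, with voom and without the Ta0 library 1 and the Ta3 library 3 together. It was 0 with a common total and with only the groups compared, 6 with the length slope, and 0 to 1 when 1 library was left out. Over all genes, lower calls were 27, 20, 28, 49, 29 and 17 in the first 6 of these settings, then 11, 7, 385 and 7 to 33, against 49. For both glasses (3 called) it was 1 with no filter, 1 with a common total, where Cxcl10 was the gene called, 6 with the length slope, and 0 to 3 when 1 library was left out. Over all genes, lower calls were 41, 21, 332 and 10 to 93, against 72. With the common total Cxcl10 passed the filter through the cpTi libraries, where it is high, and its values rest on 97 reads or fewer. Between Ta3 and Ta0 it was 0 in every alternative run. Under the common total the median log2 fold change of all genes was -0.47 for Ta0, -0.09 for Ta3, -0.28 for both glasses and 0.33 for Ta3 against Ta0, where the deposited scale gave -0.00117, 0.02, 0.01 and -0.04. Relative to the median under the common total, Rsad2 stood at -1.35, Cmpk2 at -1.08 and Usp18 at -1.16 for both glasses. The cause of these moves was not tested.

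The replicate number as a block gave 0 called genes for Ta0, 0 for Ta3 and 1 (Rsad2, just under the threshold) for both glasses, where 4, 4 and 14 genes were called lower in all. Deviations of libraries with the same number correlated between -0.82 and 0.85 across genes, and those with different numbers between -0.78 and 0.81. Whether the numbers pair the libraries cannot be told from these values.

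Rsad2, Cmpk2, Usp18, Mx1, Zbp1 and Ifih1 stayed below 0 against cpTi, on each glass and on both, in every alternative run, and Isg15 did so on Ta3 and on both. Bst2 turned sign on Ta0 with a common total (-0.0877), the length slope (-0.50) and without the 2 libraries together (-0.0390); on Ta3 with voom (0.0334); and for both glasses with the same 3 settings as on Ta0 (-0.15, -0.42 and -0.36). With 1 library left out, its range was -0.0390 to 1.02 on Ta0, -0.69 to 0.73 on Ta3 and -0.13 to 0.63 for both glasses, and that of Isg15 on Ta0 was -0.64 to 0.30. Between Ta3 and Ta0, where nothing was called, signs turned with a common total for Cmpk2 (0.22), Mx1 (0.0649), Zbp1 (0.0561) and Ifih1 (0.36). They turned with the length slope for Zbp1 (0.0566) and Bst2 (0.15), with voom for Ifih1 (0.0103), and without the 2 libraries for Cmpk2 (0.0184), Usp18 (-0.15) and Ifih1 (0.21). Ranges there with 1 library left out were -0.24 to 0.0213 for Cmpk2, -1.37 to 0.0274 for Isg15, -0.10 to 0.18 for Usp18, -0.60 to 0.0354 for Zbp1, -0.15 to 0.25 for Ifih1 and -1.22 to 0.20 for Bst2. Depth limited Cxcl10 and Mx2, which had at most 12 and 22 reads in any glass library.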

Other observations

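Isg15, Zbp1 and Bst2 moved together between libraries of a material, and the ratio of their levels was looked at after the values were seen. The ratio of Isg15 to Bst2 FPKM was 0.248, 0.270 and 0.209 in the cpTi libraries, 0.121, 0.150 and 0.177 on Ta0, and 0.156, 0.105 and 0.111 on Ta3. The ratio of Zbp1 to Bst2 was 0.0634, 0.0740 and 0.0593 on cpTi, 0.0119, 0.0289 and 0.0266 on Ta0, and 0.0235, 0.0381 and 0.0150 on Ta3. In both ratios no glass library reached the lowest cpTi library, although the levels of all 3 genes overlapped between the materials. The ratio of Rsad2 to Bst2 did overlap, at 0.0324 to 0.0836 on cpTi and 0.00529 to 0.0607 on the glasses. So did that of Usp18 to Bst2, at 0.0269 to 0.0516 on cpTi and 0.00340 to 0.0474 on the glasses. Bst2 itself was highest in the Ta0 library 1 (860 FPKM) and the Ta3 library 3 (638 FPKM), which lowers any ratio to it there. The share of all tested genes without overlap in such a ratio was not computed. These ratios were chosen from the data and were not tested.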
